A study of Mus musculus with 6 samples.

Results

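The promoters of 10 genes of neuroendocrine secretion were followed in medullary thymic epithelial cells, and each gene was present by symbol among 27095 gene windows (10 members of 27095). They were taken by name, with earlier results of these data known. They comprise 5 granin genes (Chga, Chgb, Scg2, Scg3 and Scg5), the prohormone convertase genes Pcsk1 and Pcsk2, the lineage factor genes Insm1 and Neurod1, and the receptor gene Ret. The study compared 3 libraries from wildtype mice with 3 from Kat7 knockout mice, all on the C57BL/6 background, with ATAC-seq, in which a transposase cuts and tags open DNA. The cells had been chosen for high MHC class II. KAT7 is a histone acetyltransferase. The sources used here do not give the age of the mice, the allele, whatever drives the deletion or any pooling of animals. Each value is a read count in a window around a gene's start, so it reports accessibility of the promoter and not expression.

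Granins are acidic proteins packed into the dense core granules of endocrine and neuroendocrine cells, where they help granules to form and serve as precursors of peptides. Prohormone convertases cut granins and hormone precursors at pairs of basic residues inside these granules. INSM1 and NEUROD1 are transcription factors of endocrine and neuronal differentiation, and RET is a receptor tyrosine kinase for ligands of the GDNF family. Medullary thymic epithelial cells display proteins of many tissues to developing T cells, and some of them take on features of neuroendocrine cells.

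Of the members, 8 had a promoter in the RefSeq sequence table (build GRCm38.p6); Insm1 and Ret had no entry. In the 250 bases before the annotated start, 3 of the 8, namely Chgb, Scg2 and Pcsk1, held the full cAMP response element TGACGTCA, a site that CREB-family factors are known to bind. It starts 72 bases before the start of Chgb, 68 before that of Scg2 and 78 before that of Pcsk1. On either strand this palindrome occurs in 1.55% of 32851 promoters of the same length. Its part TGACG, which every full element also holds, occurs in 17.8% of promoters and was found in 7 of the 8, all but Neurod1. Only exact matches to the element were counted, and Chga held just the shorter form, within the stretch TGACGTAA. How often such near variants occur was not counted. The sequences of the 3 promoters with the full element are shown with that of Chga. They run 5′ to 3′ on the gene's strand, and capitals mark TGACGTCA or TGACG on either strand. They cover chr2:132781392-132781641 (plus strand), chr1:79440027-79440276 (minus), chr13:75089607-75089856 (plus) and chr12:102554691-102554940 (plus).
Chgb: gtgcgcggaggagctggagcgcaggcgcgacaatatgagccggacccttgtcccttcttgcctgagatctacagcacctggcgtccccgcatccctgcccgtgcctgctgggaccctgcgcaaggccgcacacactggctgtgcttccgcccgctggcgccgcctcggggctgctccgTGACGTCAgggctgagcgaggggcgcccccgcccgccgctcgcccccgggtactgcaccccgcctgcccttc
Scg2: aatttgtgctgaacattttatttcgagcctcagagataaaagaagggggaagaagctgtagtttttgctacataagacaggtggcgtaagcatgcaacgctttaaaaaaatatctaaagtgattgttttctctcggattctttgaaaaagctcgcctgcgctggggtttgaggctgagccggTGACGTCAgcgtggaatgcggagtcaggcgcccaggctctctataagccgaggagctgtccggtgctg
Pcsk1: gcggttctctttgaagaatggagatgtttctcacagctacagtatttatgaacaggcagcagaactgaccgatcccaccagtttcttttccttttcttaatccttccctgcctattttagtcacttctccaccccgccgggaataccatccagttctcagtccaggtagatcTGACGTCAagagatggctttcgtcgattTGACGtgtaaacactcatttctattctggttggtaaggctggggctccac
Chga: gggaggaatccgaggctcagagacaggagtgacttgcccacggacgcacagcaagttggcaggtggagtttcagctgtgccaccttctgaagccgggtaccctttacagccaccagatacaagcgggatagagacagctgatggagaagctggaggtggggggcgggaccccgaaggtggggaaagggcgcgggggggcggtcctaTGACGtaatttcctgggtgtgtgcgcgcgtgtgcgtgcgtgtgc

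The E-box CAGATG, the kind that NEUROD1 is known to favour, was in none of the 8 promoters and is in 14.4% of all. CAGCTG was in those of Chga and Pcsk2 (13% of all) and CACCTG in those of Chga, Chgb, Scg2 and Scg5 (17.2% of all). TATAAA was in none of them (12.4% of all). No stretch matched the consensus of RE1, the element that the repressor REST binds, with up to 3 mismatches (0.925% of all). The promoters differed in base composition, from 46.8% G and C with 8 CpG in Pcsk1 to 82.4% with 35 CpG in Pcsk2, where the median promoter had 52.4% and 6 CpG. Chgb had 72.8% with 26 CpG, Scg2 48% with 13 and Chga 62.4% with 16.

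A window of full length, as all members had, began 3000 bases before a gene's start and ended 2000 bases after it. Of the 27095 windows, 5115 were shorter. Library totals ranged from 15482439 to 19832326 counts, and levels are given as CPM, the counts of each library scaled to a common library size and composition. Members' raw counts ran from 50 (Neurod1) to 3990 (Insm1) per library. The promoter of Kat7 itself had 291, 238 and 272 CPM in wildtype libraries 1 to 3 and 11.9, 13.2 and 38.3 CPM in the knockout libraries (log2 fold change -3.66, SE 0.574, edgeR adjusted p = 0.0143), which was 0.0643 without wildtype library 1 and 0.0565 without wildtype library 3. In a list of 17 thymic epithelial genes, mostly of the medulla, every window had signal, 3 were higher (Krt5, Foxn1 and Psmb11) and none lower. Of all windows tested, 6.36% were higher and 20.2% lower. The list's median wildtype level was 117 CPM, and in the most accessible quartile of windows 9.32% were higher and 3.72% lower. Unadjusted, 3 of the 17 were lower at p under 0.05 in the edgeR test. The summed level of the 17 windows was 2400 to 2512 CPM in wildtype and 2489 to 3016 CPM in knockout. Aire, whose window shares bases with another, had 73.9 ± 3.03 and 63.3 ± 5.84 CPM (SD, n = 3 each). Foxn1, the master factor of thymic epithelium, had 92.9 ± 24.5 and 299.6 ± 30.8 CPM, and Psmb11, a gene of cortical epithelium, 17.4 ± 0.536 and 25.3 ± 0.656 CPM. Knockout library 1 stood apart in its scaling factor, 0.884 against 0.984 to 1.057 in the others. Without it the log2 fold changes of the members that passed were -1.10 (Ret), -0.80 (Pcsk1) and 0.31 (Chgb), and all 3 still passed. Nothing in the labels says whether replicates shared a litter or a day.

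The promoters of Ret and Pcsk1 lost accessibility without KAT7 and that of Chgb gained it, while the other 7 members did not pass the test. Ret fell to a fold of 0.494 and Pcsk1 to 0.561 of wildtype, and Chgb rose 1.32-fold. Of 24817 windows tested, 20.2% were lower and 6.36% higher (edgeR quasi-likelihood test, Benjamini-Hochberg adjusted p under 0.05), so that 2 of 10 lower and 1 of 10 higher is near the share of all windows. Higher windows were 23.9% of all calls, 35.6% when libraries were scaled by their totals alone and 47.7% after loess normalisation, which evens out any trend with accessibility. The median log2 fold change was -0.17 over the 10 members and 0.04 over all windows tested. All knockout libraries were lower than all wildtype ones for 4 members (24.6% of all windows) and higher for 2 (13.5% of all windows); for the other 4 the groups overlapped. Fewer cells with an open promoter and less opening per cell cannot be told apart in bulk libraries.

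**Figure D1:**
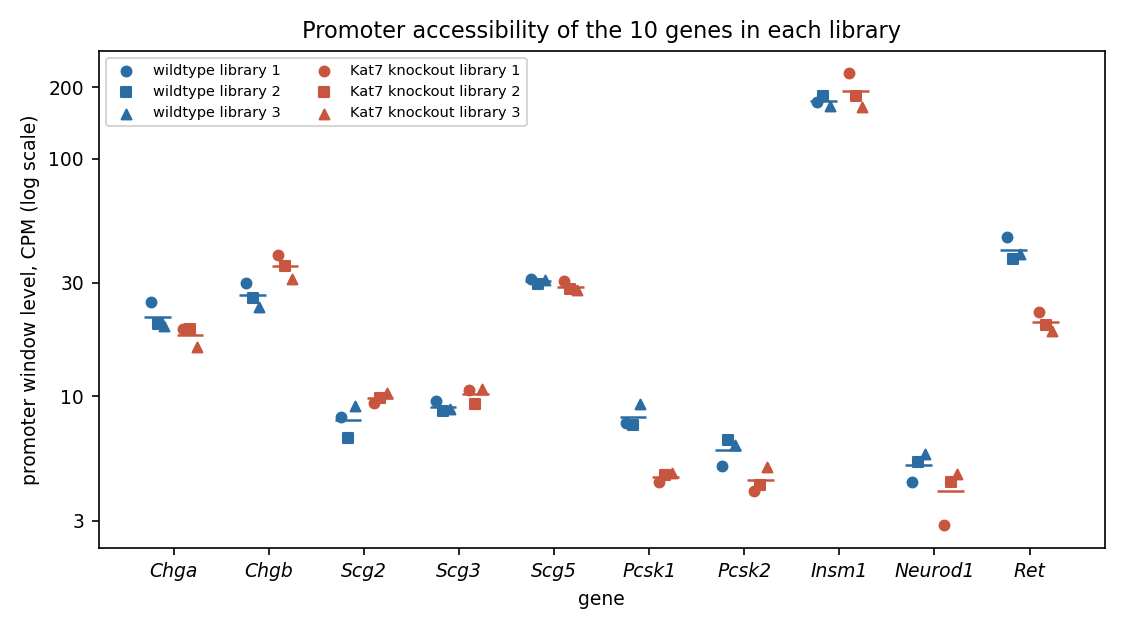
Level of each promoter window in CPM (log axis) in every library; circles, squares and triangles are libraries 1, 2 and 3 of each group, and the short lines are group means of 3. Ret and Pcsk1 sit lower in all 3 knockout libraries, Chgb sits higher in all 3, and Insm1 is the most accessible of the 10 genes.

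The members spanned a wide range of accessibility in wildtype cells. The members' windows were all 5001 bases long. Per kilobase of window the order was Insm1 (34.9 ± 1.74 CPM per kb), Ret (8.29 ± 0.953), Scg5 (6.10 ± 0.161), Chgb (5.31 ± 0.627), Chga (4.33 ± 0.565), Scg3 (1.80 ± 0.102), Pcsk1 (1.64 ± 0.188), Scg2 (1.59 ± 0.247), Pcsk2 (1.19 ± 0.154) and Neurod1 (1.03 ± 0.141), as mean ± SD of 3 libraries. Neighbours in this order overlapped between Scg5 and Chgb, Chgb and Chga, Scg3 and Pcsk1, Pcsk1 and Scg2, and Pcsk2 and Neurod1, so those pairs are not separated by their spread. In knockout cells Chgb stood second at 7.04 ± 0.795 CPM per kb, and Ret at 4.10 ± 0.401, behind Scg5. Insm1 was above 96.6% of tested windows in wildtype level, and Neurod1, the lowest member, above 39.2%. When all tested windows were divided into quartiles by mean accessibility, no member fell in the lowest.

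Ret, the receptor gene, had the largest change of the 10 members. Its window (gene identifier 19713, chromosome 6, 118195744 to 118200744, mm10, minus strand) had 46.8, 37.8 and 39.8 CPM in wildtype libraries 1 to 3 and 22.7, 20.01 and 18.8 CPM in knockout libraries 1 to 3. All 3 knockout libraries were below all 3 wildtype libraries, and the groups were far apart. The knockout libraries held 54.7%, 48.3% and 45.3% of the wildtype mean. The log2 fold change was -1.02 (SE 0.115, 95% interval -1.24 to -0.79, edgeR adjusted p = 2.38e-17). It passed in all 16 alternative analyses, with values from -1.12 to -0.77. The exact two-sided permutation p was 0.1, the smallest that 3 libraries against 3 can give.

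RET works with a co-receptor of the GFRA family, each of which binds its own ligands. Of the 4 co-receptor genes named GFRA1 to GFRA4, 3 were lower, beside 20.2% of all windows. In the third accessibility quartile, which holds Gfra1 and Gfra2, 43.2% of windows were lower. The related gene Gfral, named after its values were seen, did not pass (1.32 and 1.80 CPM, log2 fold change 0.46, edgeR adjusted p = 0.47). Gfra1, the co-receptor for GDNF, had 54.7, 52.7 and 54.2 CPM in wildtype and 29.0, 25.1 and 23.3 CPM in knockout libraries (log2 fold change -1.06, SE 0.114, edgeR adjusted p = 4.78e-19). Gfra2, that for neurturin, fell from 37.6 ± 2.54 to 18.4 ± 1.34 CPM (log2 fold change -1.03), and Gfra3, that for artemin, from 15.6 ± 0.612 to 5.77 ± 0.573 CPM (-1.43). The groups did not overlap at any of these 3 promoters. Gfra4, the co-receptor for persephin, did not pass: it had 32.3 ± 1.33 and 35.4 ± 3.998 CPM (log2 fold change 0.14, 95% interval -0.09 to 0.36, edgeR adjusted p = 0.408). The ratio of Ret to Gfra1 within a library was 0.769 ± 0.0761 in wildtype and 0.795 ± 0.0116 in knockout (SD, n = 3). This pair was not planned, and the ratio is given as a description.

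The ligand genes, singled out after their values were seen, did not pass. Gdnf had a log2 fold change of -0.22 (edgeR adjusted p = 0.18), Nrtn of -0.08, Artn of 0.23 and Pspn of -0.06. Over the whole list of 14 RET co-receptors, ligands and adaptors, 5 were lower and none higher. The median log2 fold change was -0.24. Unadjusted, 1 was higher at p under 0.05; DESeq2 called none higher and limma-voom 1. Grb10, an adaptor that binds activated receptor kinases, was among the lower ones at 28.8 ± 2.39 and 12.4 ± 0.738 CPM (log2 fold change -1.22). The lower calls were 5 of 14 against 20.2% of all windows. In the third accessibility quartile, which holds Ret, Chga, Chgb and Scg5 and also Gfra1, Gfra2 and Grb10, 43.2% of windows were lower and 9.28% higher, and after loess normalisation 30.1% and 33.9%.

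Of the convertase genes, Pcsk1 fell and Pcsk2 did not pass. Pcsk1 encodes PC1/3, which makes the early cuts in many hormone precursors. Its window (identifier 18548, chromosome 13, 75086987 to 75091987, plus strand) had 7.69, 7.61 and 9.27 CPM in wildtype and 4.36, 4.66 and 4.77 CPM in knockout libraries 1 to 3. The knockout values lay close together and all below wildtype. The raw counts behind them were 150, 119 and 157 against 76, 78 and 78. The log2 fold change was -0.83 (SE 0.184, 95% interval -1.19 to -0.47, edgeR adjusted p = 4.83e-05). It passed in all 16 alternatives, although loess normalisation brought it to -0.39 (adjusted p = 0.0438).

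Pcsk2 encodes PC2, which completes the processing of many peptides. Its window (identifier 18549, chromosome 2, 143543133 to 143548133, plus strand) shares 2297 bases with that of the antisense gene Pcsk2os1, so its count is less certain. It had 5.07, 6.52 and 6.26 CPM in wildtype and 4.01, 4.24 and 5.01 CPM in knockout libraries. The groups did not overlap, but wildtype library 1 and knockout library 3 nearly met. The log2 fold change was -0.42 (SE 0.204, 95% interval -0.83 to -0.02, edgeR adjusted p = 0.115), and it passed with limma-voom (adjusted p = 0.0107). This interval and those of other members are not adjusted for the number of windows. Within a library the ratio of Pcsk1 to Pcsk2 was 1.52, 1.17 and 1.48 in wildtype and 1.09, 1.10 and 0.951 in knockout. All 3 knockout ratios were below the wildtype ones, but wildtype library 2 was close to them, and the difference between the 2 genes' changes was not tested.

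Among the 7 other proprotein convertase genes 2 fell and none rose, which is near the 20.2% and 6.36% of all windows, and the median log2 fold change was -0.25. Furin, the convertase of the constitutive secretory pathway, fell from 53.9 ± 2.03 to 31.4 ± 1.62 CPM (log2 fold change -0.78, SE 0.113, edgeR adjusted p = 8.45e-11). Unadjusted, 2 of the 7 were higher at p under 0.05. DESeq2 called 1 higher and limma-voom 2.

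**Figure D2:**
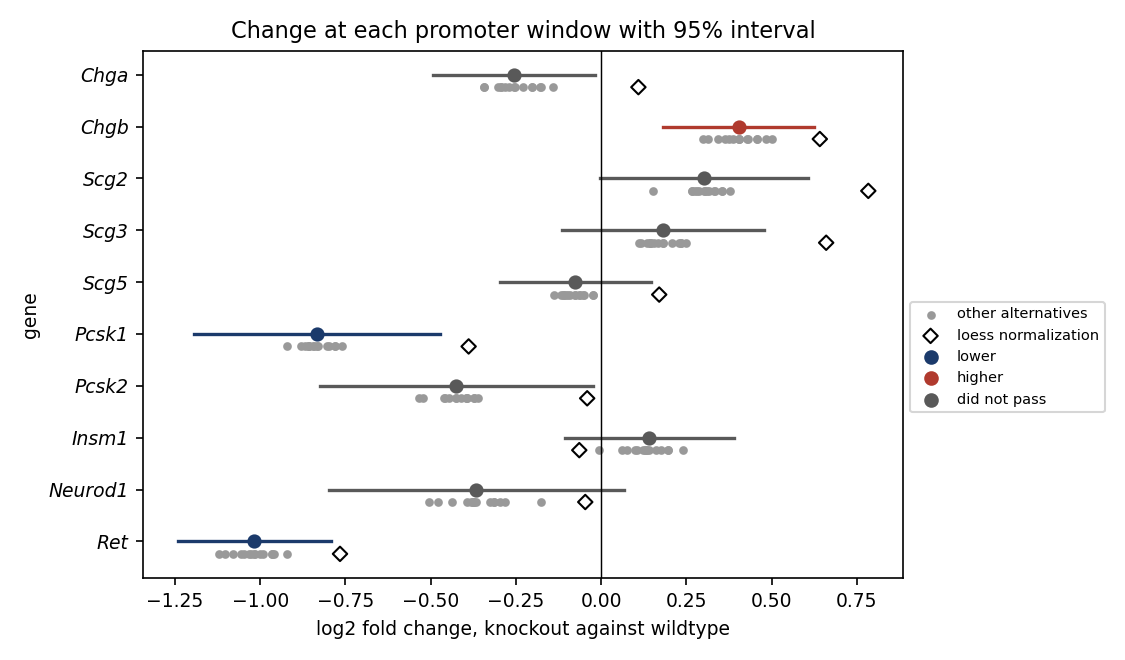
Log2 fold change (knockout against wildtype) of each of the 10 promoters with its 95% interval, coloured by the call; grey dots and the open diamond under each line are the same value in the alternative analyses and after loess normalization. Ret and Pcsk1 lie below 0 and Chgb above 0 in all of them, while Chga, Scg5 and Insm1 cross 0 after loess.

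Of the 5 granin genes Chgb rose and the other 4 did not pass; whether their changes differ from that of Chgb was not tested. Chgb encodes chromogranin B, a major matrix protein of dense core granules. Its window (identifier 12653, chromosome 2, 132778278 to 132783278, plus strand) had 29.98, 25.9 and 23.8 CPM in wildtype and 39.2, 35.2 and 31.2 CPM in knockout libraries. Every knockout library was above every wildtype library, with a narrow gap between wildtype library 1 and knockout library 3. This rise was a log2 fold change of 0.40 (SE 0.113, 95% interval 0.18 to 0.63, edgeR adjusted p = 0.00205). It passed in all 16 alternatives, with values from 0.30 to 0.64 and adjusted p up to 0.0464 (without wildtype library 3).

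Chga, the gene of chromogranin A, the granin used most often as a marker of neuroendocrine cells, stood on the other side of 0. Its window (identifier 12652, chromosome 12, 102551969 to 102556969, plus strand) had 24.9, 20.2 and 19.8 CPM in wildtype and 19.3, 19.1 and 16.1 CPM in knockout libraries. The knockout libraries were all below wildtype, but the highest of them and the lowest wildtype library were nearly equal. Relative to wildtype the log2 fold change was -0.26 (SE 0.121, 95% interval -0.49 to -0.02, edgeR adjusted p = 0.108). It passed without a filter on low counts (adjusted p = 0.0414) and without wildtype library 2 (0.013), and it turned to 0.11 after loess normalisation.

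The 2 chromogranin genes can be set against each other within each library, where scaling of the library cancels. The ratio of Chgb to Chga was 1.204, 1.285 and 1.199 in wildtype libraries and 2.036, 1.841 and 1.936 in knockout libraries, or 1.23 ± 0.0481 against 1.94 ± 0.0976 (SD, n = 3). The groups were widely separated in this ratio, more so than in either gene alone. This pair was chosen after its values were seen, and the ratio is given as a description.

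Scg2 encodes secretogranin II, the precursor of secretoneurin. Its window (identifier 20254, chromosome 1, 79438090 to 79443090, minus strand) had 8.15, 6.65 and 9.10 CPM in wildtype and 9.40, 9.79 and 10.3 CPM in knockout libraries. The knockout libraries were all above wildtype, by little over wildtype library 3. A log2 fold change of 0.30 (SE 0.156, 95% interval -0.0038 to 0.61, edgeR adjusted p = 0.148) did not pass. After loess normalisation it was 0.78 with an adjusted p of 0.00019, where 19.1% of all windows were called higher.

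Scg3 encodes secretogranin III, which links chromogranin A to the granule membrane. Its window (identifier 20255, chromosome 9, 75682056 to 75687056, minus strand) had 9.58, 8.63 and 8.80 CPM in wildtype and 10.7, 9.26 and 10.8 CPM in knockout libraries. The groups overlapped, with knockout library 2 below wildtype library 1. Its log2 fold change was 0.18 (SE 0.151, 95% interval -0.11 to 0.48, edgeR adjusted p = 0.408), and after loess normalisation it was 0.66 (adjusted p = 0.000521).

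Scg5 encodes 7B2, the chaperone that PC2 needs to become active. Its window (identifier 20394, chromosome 2, 113827091 to 113832091, minus strand) had 31.1, 29.6 and 30.9 CPM in wildtype and 30.4, 28.4 and 28.1 CPM in knockout libraries. The groups overlapped, and relative to its mean Scg5 varied less in wildtype than the other granin genes. Its log2 fold change was -0.08 (SE 0.113, edgeR adjusted p = 0.672), and its 95% interval ran from -0.30 to 0.15. The ratio of Ret to Scg5 within a library was 1.36 ± 0.131 in wildtype and 0.707 ± 0.0385 in knockout. This pair was not planned, and as Scg5 changed little the ratio mainly restates the fall of Ret.

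The full cAMP response element did not go with 1 direction among the members. Of the 3 promoters that hold it, as printed above, the window of Chgb rose, that of Pcsk1 fell and that of Scg2 did not pass. Over all tested windows of genes in the promoter table, 17.1% of the 380 with TGACGTCA were lower and 6.84% higher, and 20.2% of the 16837 without it were lower and 6.17% higher. The element was in 1 of 50 related genes with a promoter in the table, Pax6.

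The lineage factor genes Insm1 and Neurod1 did not pass. Insm1 encodes a zinc finger protein needed for endocrine cell differentiation in several organs. Its window (identifier 53626, chromosome 2, 146218997 to 146223997, plus strand) had 173, 184 and 167 CPM in wildtype and 229, 184 and 165 CPM in knockout libraries. Knockout library 1 was far above the other 5 libraries, which lay together. The log2 fold change was 0.14 (SE 0.126, 95% interval -0.11 to 0.39, edgeR adjusted p = 0.447), and it was -0.0050 without knockout library 1. In the highest accessibility quartile, which holds Insm1, 3.72% of windows were lower and 9.32% higher, and after loess normalisation 23.3% and 23%.

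Neurod1 encodes a basic helix-loop-helix factor that acts after commitment to the endocrine or neuronal fate. Its window (identifier 18012, chromosome 2, 79454636 to 79459636, minus strand) had 4.36, 5.30 and 5.73 CPM in wildtype and 2.87, 4.36 and 4.71 CPM in knockout libraries. The groups overlapped narrowly, and knockout library 1 was the lowest. This gave a log2 fold change of -0.37 (SE 0.22, 95% interval -0.80 to 0.07, edgeR adjusted p = 0.229). The raw counts of 50 to 97 per library make this the least precise of the members. In the second accessibility quartile, which holds Neurod1, Scg2, Scg3, Pcsk1 and Pcsk2, 32.5% of windows were lower and 4.58% higher, and after loess normalisation 23.2% and 16.6%.

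Among 21 other factors linked to neuroendocrine fate, 10 were lower and none higher, against 20.2% and 6.36% of all windows. The list includes Rest, Hes1 and Id3, and its median log2 fold change was -0.33. Its median wildtype level was 9.98 CPM. In accessibility quartiles 2 and 3, with medians of 4.13 and 27.7 CPM, 32.5% and 43.2% of windows were lower and 4.58% and 9.28% higher. Rfx6, a factor of islet and gut endocrine cells, fell from 5.75 ± 0.589 to 2.15 ± 0.520 CPM (log2 fold change -1.43, SE 0.247, edgeR adjusted p = 9.36e-08). Prox1, a homeobox factor, had 2.60 ± 0.144 and 1.25 ± 0.271 CPM (-1.05, adjusted p = 0.0251), in a window that shares bases with another. It lost its call without wildtype library 1, 2 or 3 or without knockout library 3 (adjusted p 0.0568 to 0.12). Nkx2-2 (log2 fold change -0.58, adjusted p = 0.11; overlapping window) and Rest, the repressor of neuronal genes in other cells (0.26, adjusted p = 0.0864), did not pass. Unadjusted, 3 of the 21 were higher at p under 0.05, and DESeq2 called 2 higher and limma-voom 3.

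Of 25 genes of the granule and its release, 8 were lower, none higher and 17 did not pass, against 20.2% lower and 6.36% higher over all windows, and the median log2 fold change was -0.14. Their median wildtype level was 25.4 CPM. In the third accessibility quartile, with a median of 27.7 CPM, 43.2% of windows were lower. Cadps, which primes dense core granules for release, fell from 88.7 ± 7.80 to 38.3 ± 3.47 CPM (log2 fold change -1.21, SE 0.117, edgeR adjusted p = 1.20e-23). Slc18a2, the vesicular monoamine transporter gene, fell from 6.34 ± 1.55 to 2.92 ± 0.423 CPM (-1.13). Unadjusted, 1 of the 25 was higher at p under 0.05. DESeq2 called none higher and limma-voom 1.

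**Figure D3:**
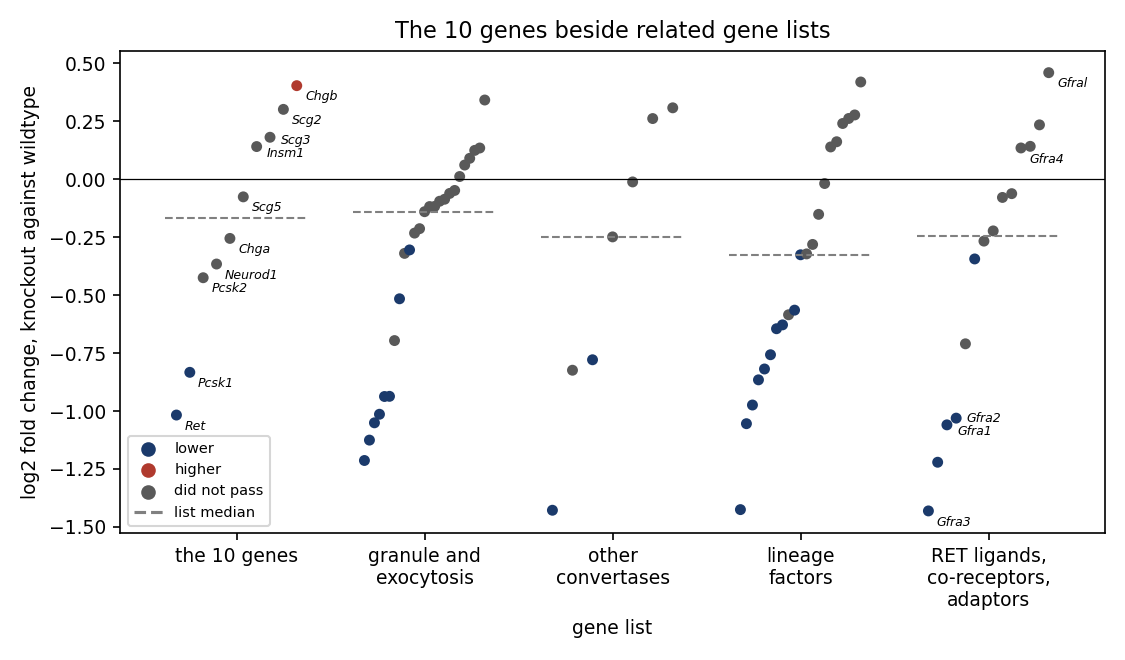
Log2 fold change (knockout against wildtype) of each tested window in the 10 genes and in 4 lists of related genes, each point 1 gene coloured by its call, dashed lines the list medians. Among the 10 genes Chgb is the 1 called higher; no gene of the 4 other lists is called higher, and Gfra1, Gfra2 and Gfra3 lie near or below Ret.

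The nearest promoters on either side of Ret, Pcsk1 and Chgb did not pass. Csgalnact2, 53.6 kb from Ret, had a log2 fold change of 0.02, and 1700069P05Rik, 46.0 kb away on the other side, 0.20 (edgeR adjusted p = 0.742). Beside Pcsk1, Cast (276.1 kb away) had 0.01 and Mir682 (550.1 kb away) 0.33 (adjusted p = 0.572). In wildtype and knockout, 1700069P05Rik had 1.83 and 2.10 CPM (SE 0.373) and Mir682 1.66 and 2.08 CPM (SE 0.384). At such low levels a change could be missed. Beside Chgb, Shld1 (86 kb away) had 0.01 and Mcm8 (30.1 kb away, at 0.503 and 0.461 CPM and in an overlapping window) -0.13. Around all 10 members, 6 of 20 nearest windows were lower and 1 higher, against 20.2% and 6.36% of all windows.

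Markers of other cell types that carry granins were counted as well, beside 20.2% lower and 6.36% higher over all windows. The median wildtype level was 9.79 CPM for parathyroid and C cell markers and 6.18 CPM for neuron and Schwann cell markers. In accessibility quartiles 2 and 3, with medians of 4.13 and 27.7 CPM, 32.5% and 43.2% of windows were lower. Of 10 markers of parathyroid tissue and thyroid C cells, 5 were lower and none higher, and their summed level was 111.4 to 115.3 CPM in wildtype and 52.1 to 64.5 CPM in knockout libraries. The defining hormone gene Pth (1.59 ± 0.183 and 1.31 ± 0.399 CPM) and factor gene Gcm2 (1.94 ± 0.473 and 2.09 ± 0.895 CPM) of parathyroid cells were low in both groups and did not pass. The 5 that fell, named after their values were seen, were Calca, the hormone gene of C cells (20.7 ± 0.963 to 10.5 ± 1.39 CPM, log2 fold change -0.97), Casr (-1.19), Gata3 (-1.18, overlapping window), Nkx2-1 (-1.37) and Tshr (-0.78). Of 12 markers of neurons and Schwann cells, 11 were tested, 5 were lower and none higher. Their sum was 144.7 to 161.2 CPM against 112.2 to 115.5 CPM. No marker window had 0 counts in all libraries. The part of such cells in the results was not tested.

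Markers of blood, stromal and vessel cells were counted in the same way, and their part was not tested either. The summed level of 8 thymocyte markers was 30.7 to 34.3 CPM in wildtype and 37.3 to 42.4 CPM in knockout, with 2 of 7 tested higher. For 5 B cell markers it was 57.2 to 58.3 and 36.5 to 38.1 CPM (3 lower), and for 7 myeloid and dendritic markers 57.5 to 61.5 and 45.4 to 47.9 CPM (3 lower). For 5 mesenchymal markers it was 117.4 to 121 and 92.1 to 95.9 CPM (3 lower, 1 higher), and for 5 endothelial markers 41.1 to 44.1 and 33.8 to 36.5 CPM (2 lower, 1 higher).

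**Figure D4:**
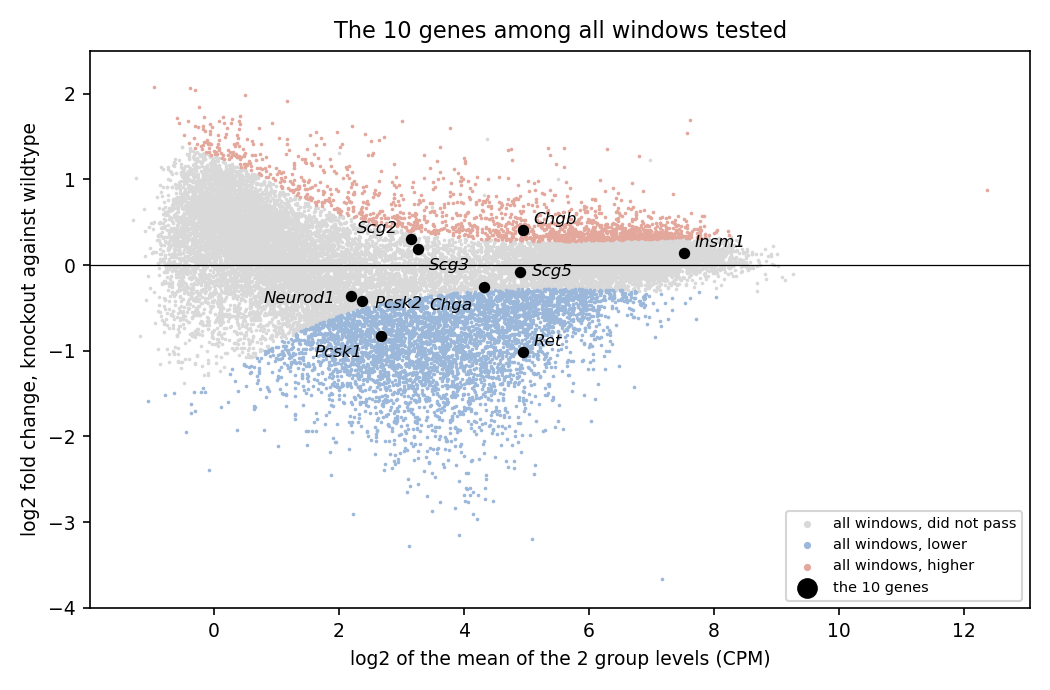
Log2 fold change (knockout against wildtype) of all 24817 windows tested against the log2 of the mean of the group levels in CPM, coloured by the call, with the 10 genes in black. Ret and Pcsk1 lie inside the broad band of lower windows at middle levels, and Chgb lies at the edge of the higher windows.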

How the data were processed

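ATAC-seq was measured in 6 libraries. The authors deposited whole-number counts per gene window; the submitters' processing notes name featureCounts and build mm10. The aligner, duplicate handling, transposase shift and unit of counting (fragments or ends) are not stated there. Duplicates can raise single windows, and a shift of a few bases is small beside windows of this size. Single-library tables matched the series table for 6 of 6 libraries and supplied the symbols. In all, 6243 windows share bases with another; of the members only that of Pcsk2 does.

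The test of counts was that of edgeR 4.0.16 in R 4.3.3 (filterByExpr, TMM factors, robust quasi-likelihood test, no replicate block), adjusted over 24817 windows with a threshold of 0.05. Alternatives used limma 3.58.1 and DESeq2 1.42.0, other scalings, filters and leaving out each library. The test was checked on simulated counts, in which 200 of 24817 windows were changed 2-fold. It recovered 67% of these, taken over windows of all levels, and smaller changes were not simulated. A window that did not pass may therefore still have changed. Of its calls on simulated counts, 3.6% were false. The simulation held far fewer changes than the 20.2% lower and 6.36% higher windows of the data, and no trend with accessibility. It therefore does not give the share of false calls in the data. Library totals set the limit at the lowest levels: 3 counts, the most that a count of 0 allows, are 0.151 to 0.194 CPM. Permutation tests were exact and two-sided over libraries. The edgeR p-values rest on a spread between these 6 libraries that is estimated mostly over all windows together, and little from the window itself. For example, Scg5 and Chgb had the same SE of 0.113, with wildtype SDs of 0.803 and 3.13 CPM. Since no molecular identifiers mark the molecules, counting limits cover counting error only.

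Named were all members, the nearest tested window on each side of those that passed, and from each related list the 2 largest falls and rises past the threshold, besides Nkx2-2, Rest, Gfra1 to Gfra4, Kat7, Aire, Foxn1 and Psmb11; a few genes that the rule names are not reported here. The members and lists were chosen with earlier results of these data known. Promoter sequences are from RefSeq (GRCm38.p6), and their starts lie 0 to 364 bases from the start that the windows use.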

Additional observations from a re-analysis of the deposited data

How the results depend on the processing

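The calls at Ret, Pcsk1 and Chgb held in all 16 alternatives. The number of members lower was 2 or 3; the third was Chga with no filter or without wildtype library 2, and Pcsk2 with limma-voom. Members higher numbered 3 after loess normalisation (Chgb, Scg2 and Scg3) and 2 under a minimum mean count of 50 (Chgb and Insm1). After loess normalisation Chga (0.11), Scg5 (0.17) and Insm1 (-0.064) changed sign, and with 1 library left out Insm1 ran from -0.0050 (without knockout library 1) to 0.24 (without knockout library 3); none of these passed. The median of the members was 0.03 after loess normalisation.

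Windows higher over all genes numbered 2937 with library totals only, 4732 after loess normalisation, 3937 under the minimum mean count of 50, 4738 with limma-voom and 2824 with the replicate block, against 1578, and from 689 (without wildtype library 1) to 3177 (without knockout library 1) with 1 library left out. The higher share of all calls, 23.9% as reported, was 35.6% with library totals and 47.7% after loess. Higher calls among granule genes numbered 4 after loess and 1 with limma-voom or the minimum mean count of 50. Among lineage factors they numbered 4 with that minimum, 3 with library totals, limma-voom or the replicate block, 2 after loess, with no filter or with the DESeq2 test, and 0 to 3 with 1 library left out. Among other convertases they numbered 2 after loess, with that minimum, with limma-voom or with the replicate block, 1 with library totals, DESeq2 size factors, the DESeq2 test or no filter, and 0 to 1 with 1 library left out; limma-voom called 4 of them lower. Among RET pathway genes they numbered 3 after loess, 2 with that minimum, and 1 with library totals, limma-voom or the replicate block. The cause of these differences was not tested.

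Same-numbered libraries of the groups deviated together with correlations of 0.374, 0.0284 and 0.389. Each wildtype library correlated best with the knockout library of its own number. For wildtype library 2 this was narrow, with 0.00314 for knockout library 1. Neither these values nor the labels settle whether the numbers pair the samples. Knockout library 2 correlated best with wildtype library 3 (0.308). The replicate block changed no call among the members. The window of Pcsk2 was not tested among windows sharing no base. Depth limits Neurod1, Pcsk2 and Pcsk1 most.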
